A study of Drosophila melanogaster with 2 samples.

Results

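Insulator and architectural proteins bind boundaries between chromatin domains and hold distant stretches of chromosome together. In flies the DNA-binding members recognise short sequences and recruit shared cofactors, of which CP190 and the Mod(mdg4) proteins are the best known, and the same proteins often sit at the promoters of housekeeping genes. The genes described here are 10 that encode such proteins, taken by name from the Ensembl annotation out of 13968 protein-coding genes. They are BEAF-32, CTCF, su(Hw), pita, Trl, Ibf1 and Ibf2, which encode DNA-binding proteins, and Cp190, mod(mdg4) and Chro, which encode cofactors.

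The data show where ATbp, a zinc finger protein whose name comes from A+T-rich DNA, lay at these genes, not what the genes' own proteins bound. ATbp carried a C-terminal GFP tag in a transgenic Drosophila melanogaster line, and an antibody against GFP pulled down chromatin from whole embryos of both sexes, aged 0 to 14 h. The sources used here do not give the promoter of the transgene or the state of the endogenous ATbp gene. There were 2 biological replicates in 1 group, and no second group, so every result is a description without a test. Each replicate and their pool has a relaxed list of 30000 peaks, and a list thresholded by the irreproducible discovery rate (IDR) holds 5921 peaks. The depth of the libraries is unknown.

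Each gene's locus was its body plus 5 kb on either side, and each peak was counted by its summit. A promoter summit of a gene lay within 500 bp of one of its own transcription start sites (TSSs). Signal is the authors' value per peak. A rank of 1 marks the highest signal in its own list, and signals were not compared between lists. Coordinates are those of dm6.

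ATbp had an IDR promoter summit at 4 of the 10 genes, Chro, Cp190, Trl and BEAF-32, against 14.9% of all protein-coding genes. These 4 genes have 2 to 4 annotated TSSs each, and the other members have 1, except pita with 2. The background was not matched for the number of TSSs. The loci of 6 genes held at least 1 IDR summit, where 45.3% of protein-coding genes had one. The distance of the members' count from this background depended on the flank. With flanks of 2 kb it was 5 of 10 against 31.7%, and with flanks of 10 kb 6 of 10 against 61.1%. Inside the gene bodies alone it was 4 of 10 against 13.8%. Among IDR peaks above the list's median rank, with flanks of 5 kb, it was 5 of 10 against 31.2%. The 6 loci held 15 IDR summits, 6 of them at mod(mdg4) and 5 at Trl. A locus with at least 5 IDR summits occurred in 2.71% of protein-coding genes, and one with at least 6 in 1.71%. These shares were not matched for the length of the locus. CTCF, pita, Ibf1 and Ibf2 had no IDR summit in their loci. A member had a median of 1 IDR summit per locus against 0 over all protein-coding genes, and the merged loci held 9.52 IDR summits per 100 kb against 4.94 in the merged loci of all protein-coding genes. Without mod(mdg4) the loci held 9 IDR summits, and without Trl they held 10. Each other member had 1 or 0, so the higher density rested on mod(mdg4) and Trl and cannot be read as a trait of the 10 genes as a set. Their loci covered 36.6 kb and 23.1 kb of the merged 158 kb. The density without both was not computed.

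The same 4 genes had a promoter summit within 200 bp (9.56% of protein-coding genes) and within 1000 bp (18.8%). Among IDR peaks above the list's median rank Chro, Cp190 and Trl had one (8.76%). In the 5921 strongest peaks of replicate 1 these were the same 4 genes (15.4%), and in those of replicate 2 they were joined by CTCF, to make 5 (14.9%). Loci with a summit numbered 7 in each replicate's strongest 5921 peaks (46.5% and 45.4% of protein-coding genes).

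**Figure D1:**
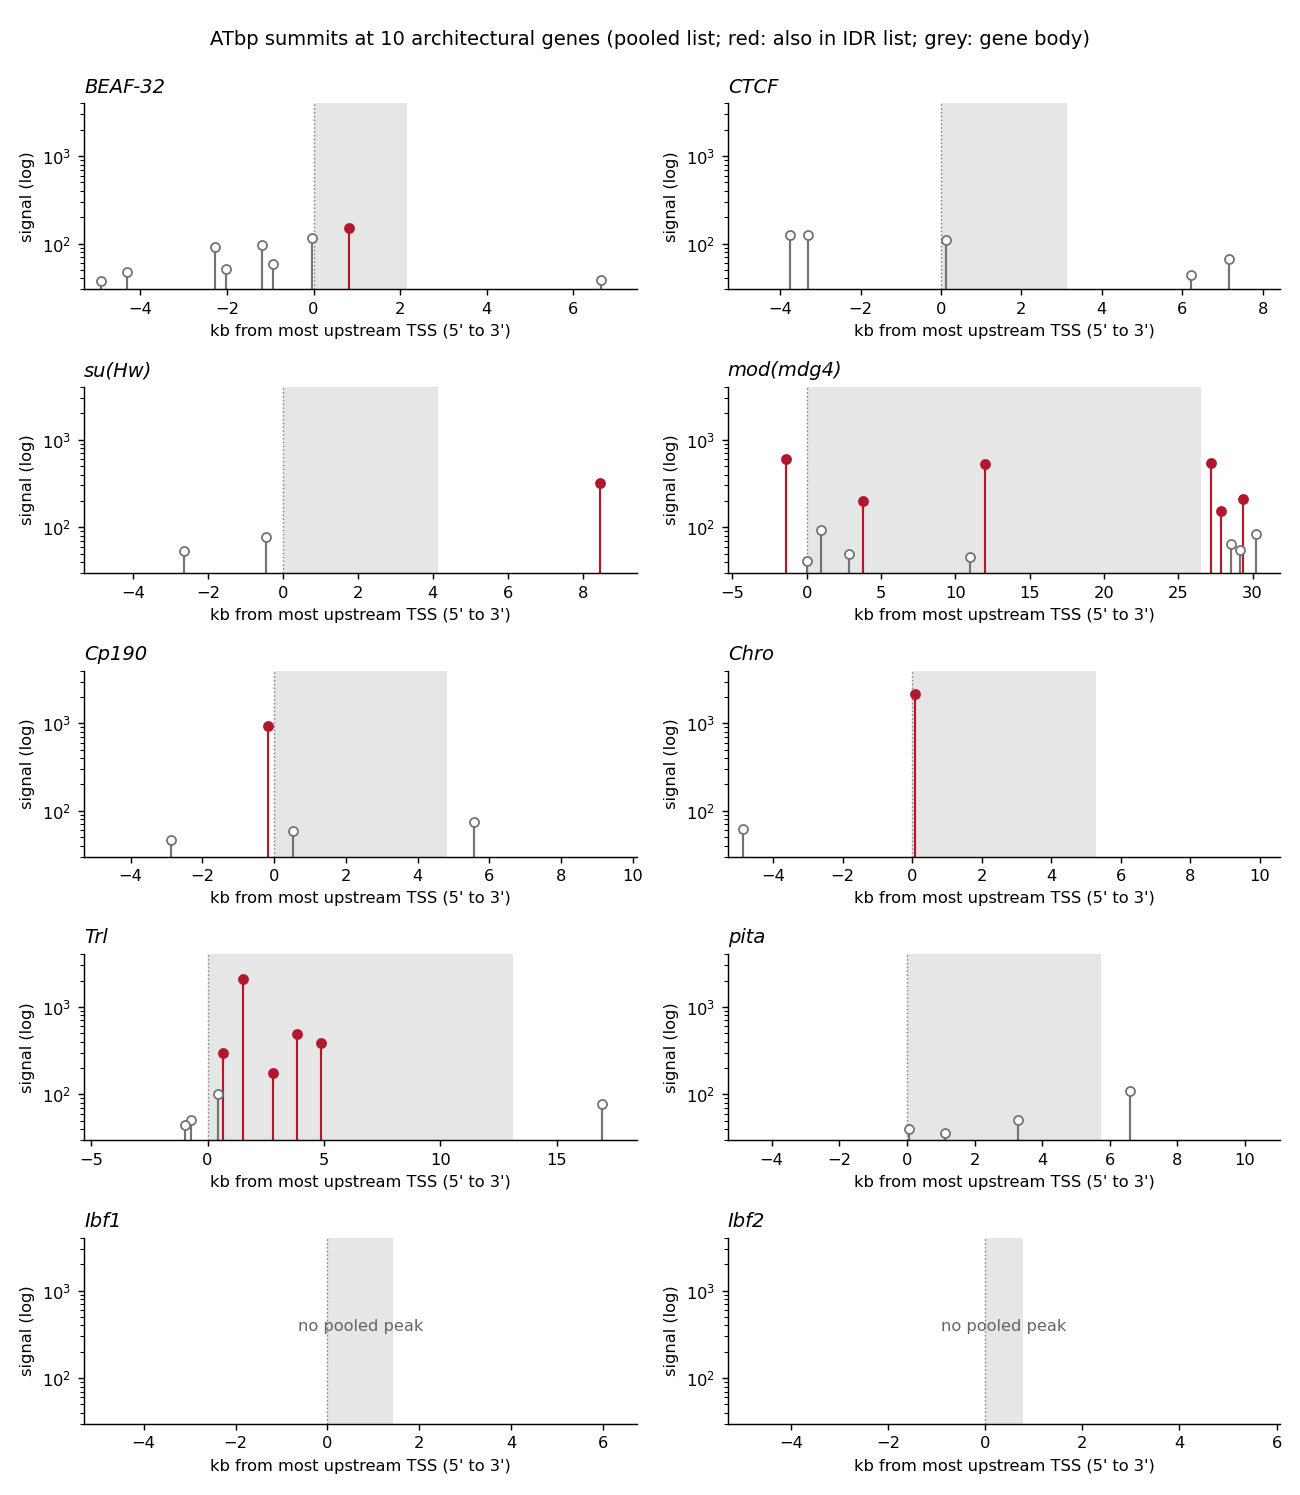
Signal of each pooled-list ATbp summit (log axis) at the 10 loci, against distance in kb from the gene's most upstream TSS, in the direction of transcription. Red points are also in the IDR list, open grey points are only relaxed peaks, and grey shading is the gene body; Chro and Cp190 each carry a single IDR summit at the start, while Trl carries 5 inside its body.

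The cofactor gene with the strongest ATbp peak was Chro. Chro (FBgn0044324, 3L, 22873702 to 22878984, minus strand) encodes Chromator, a chromodomain protein of the interbands of polytene chromosomes. Its IDR summit at 22878890 had a signal of 2173, which is 9.86 times the median of the IDR list, and ranked 17 of 5921. The summit ranked 33 in replicate 1, with a signal of 948, and 15 in replicate 2, with a signal of 1238. Both replicates therefore had it among their strongest peaks, and the replicate summits lay 1 bp and 16 bp from the IDR summit. Among the 4937 protein-coding genes with a pooled-list promoter summit, Chro took place 11.

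The Chro summit lay in the first exon of the transcripts with the most upstream start, 94 bp downstream of the TSS at 22878984 and 122 bp upstream of the one at 22878768. Ssl1, which encodes a subunit of the general transcription factor TFIIH, starts on the opposite strand at 22879089, 199 bp from the summit. The same peak thus serves as promoter summit of both genes, and the count for Chro cannot be separated from that of Ssl1. The pooled list held 1 other summit in the Chro locus, of rank 14601, in an intron of the gene slif. It lay outside the Chro gene body, 4874 bp from the nearest Chro TSS. The sequence shown first is the centre of the peak, where the core CGATA of the BEAF-32 motif, in capitals, begins 2 bases after the summit. The second is the DNA between the start sites of Chro and Ssl1, in which none of the motifs searched was found.
Chro summit, chr3L:22878880-22878909, plus strand: tgtattgcctgtCGATAgctttaaactaac
Chro to Ssl1, chr3L:22878985-22879088, plus strand: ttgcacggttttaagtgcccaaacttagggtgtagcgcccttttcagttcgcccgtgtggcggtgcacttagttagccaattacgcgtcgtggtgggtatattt

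By distance on log10 rank in the pooled and both replicate lists, over 3561 protein-coding genes with a promoter summit in all 3 lists, Ssl1 was at a distance of 0 from Chro, since the peak is shared. The nearest genes after it were CenG1A and mRpS23 on 2L, at 0.168. These also share a peak, which ranked 16 in the pooled list, 23 in replicate 1 and 17 in replicate 2.

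Cp190 (FBgn0000283, 3R, 15270432 to 15275241, minus strand) encodes the BTB domain cofactor that many fly insulator proteins recruit. Its IDR summit at 15275403 had a signal of 926 and ranked 251. In replicate 1 its signal was 444 at rank 293, and in replicate 2 it was 479 at rank 211. The summit was in the gap between divergent genes, 162 bp upstream of Cp190 and 119 bp upstream of CG4338. Cp190 also had a relaxed summit 88 bp downstream of its second TSS, at 15274702, with rank 15679 in the pooled list, 11862 in replicate 1 and 27633 in replicate 2. The 50 bp to either side of the IDR summit held 79.2% A+T, higher than at 95.7% of all IDR summits. The stretch is shown because it is the richest in A+T of the promoter summits near a member's own TSS, and apart from A/T runs it holds none of the motifs searched.
Cp190 summit, chr3R:15275328-15275478, plus strand: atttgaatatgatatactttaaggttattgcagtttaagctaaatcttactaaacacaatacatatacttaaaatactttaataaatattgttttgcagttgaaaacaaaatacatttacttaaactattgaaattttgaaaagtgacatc

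The gene mod(mdg4) (FBgn0002781, 3R, 21350846 to 21377401, minus strand) encodes a large family of BTB domain proteins with a common N-terminal part and variable C-terminal parts. Its mRNAs are joined by trans-splicing, in which exons transcribed from separate promoters, some on the opposite strand, are spliced to the common exons. The annotation names these separate precursors pre-mod(mdg4) followed by a letter code. ATbp was bound within the gene at such internal starts, and not, in the IDR list, at the common promoter.

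Within the gene body of mod(mdg4) 2 IDR summits lay at starts of precursors. The summit at 21365389 had a signal of 530 and ranked 759, with rank 1238 in replicate 1 and 503 in replicate 2. It was 99 bp from 2 minus-strand start sites, at 21365290 (pre-mod(mdg4)-AB, -C and -E) and 21365488 (pre-mod(mdg4)-E), and 220 bp from the plus-strand start at 21365609 of pre-mod(mdg4)-U to -Y, -AD and -AE. The summit at 21373633 had a signal of 199.9 and ranked 3403, with rank 4799 in replicate 1 and 2705 in replicate 2. It was 58 bp upstream of the start of pre-mod(mdg4)-AA, -N and -O. The first of these was the stronger in both replicates.

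At the annotated TSS of mod(mdg4) itself, 21377401, there was only a weak relaxed summit, 59 bp downstream, with rank 24495 in the pooled list. Replicate 1 had one of rank 10328 there and replicate 2 had none. Farther upstream, at 21378772, an IDR summit of signal 601 ranked 588, with ranks 524 and 728 in the replicates. This summit was the strongest of the locus in the pooled list. It was 1371 bp upstream of mod(mdg4) but only 205 bp upstream of tin, which starts on the other strand and encodes Tinman, the homeodomain protein needed for heart formation.

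Past the 3' end of mod(mdg4) the locus window took in the 5' part of the neighbouring gene aus, with 3 more IDR summits. The summit at 21350207, between the genes, had a signal of 535 and ranked 743, with ranks 479 and 1353 in the replicates. It was 606 bp upstream of aus and 639 bp beyond the end of mod(mdg4). The other two were inside aus, at 21349551 (rank 4815, 50 bp from its TSS) and in an intron at 21348046 (rank 3171). The sequences are from the strongest summits on either side of the gene, the one next to tin, with long A and T runs, and the one next to aus, with a GAGAG in capitals.
mod(mdg4) and tin, chr3R:21378697-21378847, plus strand: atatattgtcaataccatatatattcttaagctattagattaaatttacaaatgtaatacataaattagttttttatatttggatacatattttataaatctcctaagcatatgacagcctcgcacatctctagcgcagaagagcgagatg
mod(mdg4) and aus, chr3R:21350132-21350282, plus strand: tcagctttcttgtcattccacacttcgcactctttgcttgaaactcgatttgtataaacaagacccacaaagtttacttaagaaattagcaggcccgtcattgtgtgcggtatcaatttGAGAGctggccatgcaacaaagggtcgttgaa

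Among the genes for DNA-binding proteins, Trl stood highest. Trl (FBgn0013263, 3L, 14747929 to 14761049, minus strand) encodes GAGA factor, which binds GAGAG and opens chromatin at promoters and Polycomb response elements. All 5 of its IDR summits lay inside the gene, within 4232 bp, with gaps of 1042, 1033, 1283 and 874 bp between neighbours. Of all IDR summits, 154 of 5921 (2.60%) lay in such a run, with at least 5 in a stretch of that length.

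The strongest Trl summit was in an intron at 14759516, between the distal TSS at 14761049 and the proximal group of start sites. Its signal was 2093, 9.49 times the median of the IDR list, and its rank was 20. It ranked 25 in replicate 1, with a signal of 1035, and 21 in replicate 2, with a signal of 1071. It was therefore nearly as strong as the Chro promoter summit, yet it lay 1533 bp from the nearest TSS. A further intronic summit at 14760390, 659 bp downstream of the distal TSS, had rank 1991.

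Near the proximal start sites of Trl were 2 promoter summits. The one at 14757200, 136 bp downstream of the TSS at 14757336, had a signal of 494 and ranked 868, with ranks 1136 and 741 in the replicates. The one at 14758233, 271 bp upstream of the TSS at 14757962, had a signal of 177 and ranked 3976. It ranked 2442 in replicate 1 but 8886 in replicate 2, so replicate 2 alone would not have placed it among its 5921 strongest. CG42507 shares the TSS at 14757962. The last summit, at 14756158, was intronic with rank 1330, 1178 bp downstream of the TSS at 14757336. The sequences are those of the strongest intronic summit and of the promoter summit that holds copies of GAGAG, the sequence bound by the product of Trl, in capitals.
Trl intron, chr3L:14759441-14759591, plus strand: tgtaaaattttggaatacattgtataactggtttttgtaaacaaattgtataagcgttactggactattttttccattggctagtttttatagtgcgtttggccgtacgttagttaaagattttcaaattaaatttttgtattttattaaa
Trl promoter, chr3L:14758158-14758308, plus strand: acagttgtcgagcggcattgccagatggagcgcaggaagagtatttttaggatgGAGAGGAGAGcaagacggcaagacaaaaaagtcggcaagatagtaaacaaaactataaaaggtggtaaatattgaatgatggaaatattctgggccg

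**Figure D2:**
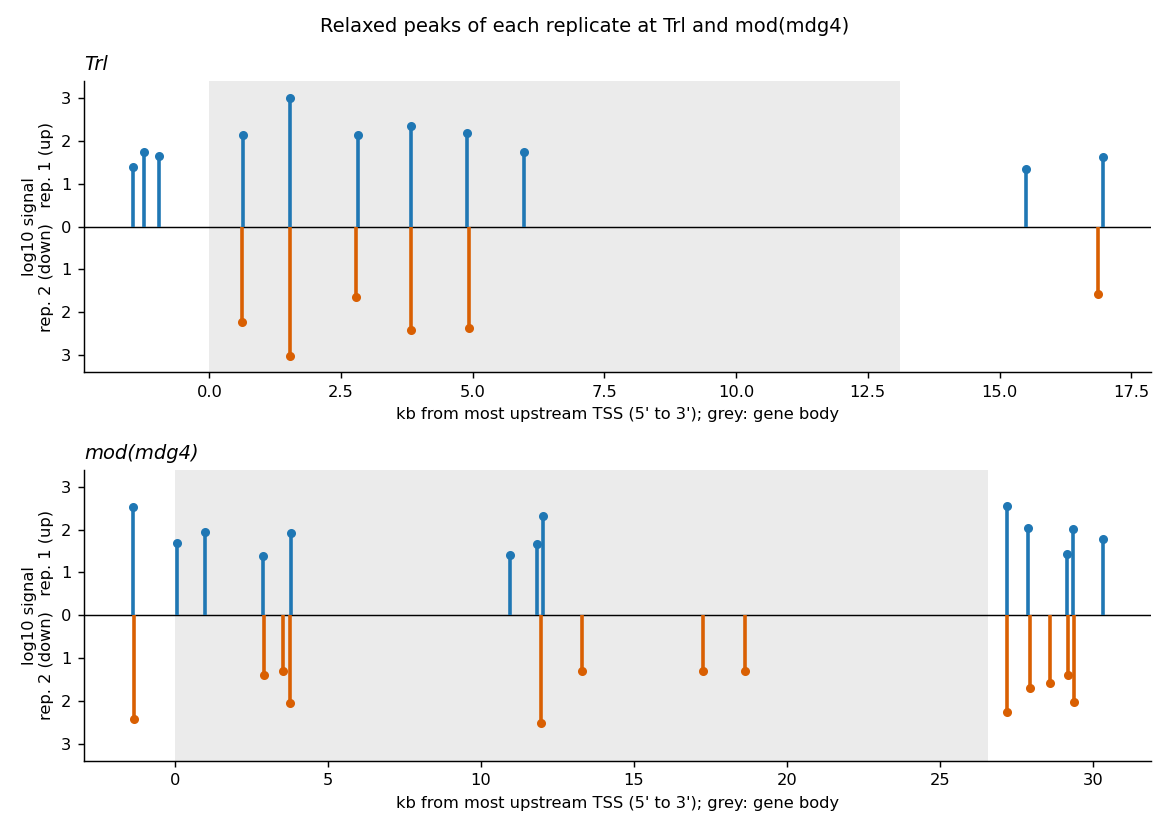
Log10 signal of the relaxed peaks of replicate 1 (up, blue) and replicate 2 (down, orange) at Trl and mod(mdg4), against distance in kb from the most upstream TSS, with the gene body in grey. All 5 Trl IDR summits have a peak in both replicates, and the strongest is near 1.5 kb from the distal TSS; the start of mod(mdg4) has a peak in replicate 1 only.

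BEAF-32 (FBgn0015602, 2R, 14770469 to 14772630, plus strand) encodes the boundary element associated factor, which binds CGATA. Its IDR summit at 14771277, with a signal of 152 and rank 4839, was the lowest of the 15 and lay 24 bp upstream of its most downstream TSS and 18 bp from a start of asRNA:CR42254, an antisense gene. The replicates placed their peaks differently there. Replicate 1 had a summit of rank 4654 at 14771293. In replicate 2 the summit within 100 bp, at 14771329, ranked only 20520, while stronger ones stood at 14771122 (rank 5203) and at 14770339, near the first TSS (rank 5106). In the pooled list the summit at the first TSS, 14770433, had a signal of 116 and rank 6746, just outside the IDR list.

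The gene su(Hw) (FBgn0003567, 3R, 14304455 to 14308589, minus strand) encodes the zinc finger protein of the gypsy insulator. The only IDR summit in its locus, at 14300130 with a signal of 321 and rank 1782, was in an intron of the neighbouring gene red, 4325 bp beyond the end of su(Hw). It ranked 1043 in replicate 1 and 3868 in replicate 2. At the su(Hw) promoter the pooled list had a summit of rank 11085, 461 bp upstream of the TSS. This summit was nearer, at 39 bp, to the TSS of Polr2I. Replicate 1 had its strongest su(Hw) promoter summit at rank 8072, 383 bp downstream of the su(Hw) TSS, and replicate 2 had none. IDR binding in the window was thus away from su(Hw) itself.

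CTCF (FBgn0035769, 3L, 7353578 to 7356713, minus strand) encodes the insulator protein conserved from flies to mammals. Its promoter summit at 7356577, 136 bp downstream of the TSS, had a signal of 109 and rank 7259 in the pooled list, against a lowest signal of 128 in the IDR list. It ranked 13684 in replicate 1 and 5153 in replicate 2, so replicate 2 alone placed it among its 5921 strongest. The locus came closest to the threshold with 2 other summits, at 7360463 near Sec63 (signal 127, rank 6013) and at 7360007 near pst (signal 127, rank 6024). The lowest-ranked IDR summits in the 10 loci were well inside the list of 5921, those at BEAF-32 (signal 152, rank 4839) and at aus (signal 153, rank 4815).

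The zinc finger gene pita (FBgn0034878, 2R, 23548967 to 23554712, minus strand), whose product recruits CP190, had 4 pooled-list summits and 8 in replicate 1, but 0 in replicate 2. It had 2 weak promoter summits in the pooled list. The one at 23551418, with a signal of 50.4 and rank 18874, was 133 bp from a pita TSS but nearer, at 105 bp, to that of Dcp-1. The one at 23554641, with rank 25449, was 71 bp from the other pita TSS. The strongest in the window, at 23548108 with rank 7110, was 43 bp from the nearest TSS, that of wmd.

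Ibf1 (FBgn0037670, 3R, 9258964 to 9260400, plus strand) and Ibf2 (FBgn0037669, 3R, 9257727 to 9258501, minus strand) encode insulator binding factors that act with CP190. They are transcribed away from each other from start sites with 462 bp between them. None of the 4 lists had a summit within 500 bp of either TSS. The pooled list and replicate 2 had 0 summits in both windows, which overlap. Replicate 1 had 4 in the Ibf1 window, of which 3 are also in that of Ibf2, the strongest of rank 10358 at 9260634. The divergent promoter of Ibf1 and Ibf2 thus differed from those shared by Chro with Ssl1 and by Cp190 with CG4338, where IDR summits lay.

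**Figure D3:**
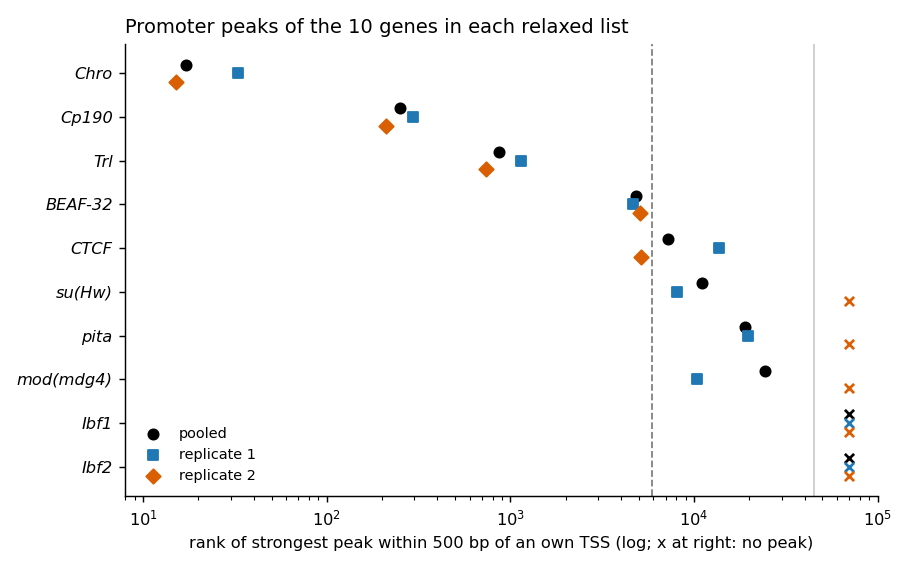
Rank (log axis, stronger to the left) of the strongest summit within 500 bp of an own TSS in the pooled, replicate 1 and replicate 2 relaxed lists, for each of the 10 genes, with crosses at the right where a list had none. The dashed line marks rank 5921, the size of the IDR list; Chro, Cp190, Trl and BEAF-32 are left of it in all 3 lists.

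In the relaxed lists, which hold weaker peaks, a promoter summit was present at 8 of the 10 genes in the pooled list, against 35.3% of protein-coding genes, at 8 in replicate 1 against 40.5%, and at 5 in replicate 2 against 33.7%. At least 1 summit lay in the locus of 8 members in the pooled list (76.3% of protein-coding genes), of 10 in replicate 1 (79.2%) and of 7 in replicate 2 (79.4%). The order of the promoter ranks of Chro, Cp190, Trl and BEAF-32 was the same in the pooled list and both replicates. Below them the order differed between lists, with CTCF ahead of su(Hw) in the pooled list and behind it in replicate 1.

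All 15 IDR summits had a summit within 100 bp in both replicates. This holds for 97.1% of all IDR summits in replicate 1 and 95.3% in replicate 2, but these replicates are what the IDR list was built from. In replicate 1 all 15 were among the strongest 5921 peaks, and in replicate 2 12 were. The 3 below that rank in replicate 2 were at BEAF-32, aus and the upstream Trl promoter. The same shares over all IDR summits are not given, so this difference between replicates cannot be called particular to these loci. Of the relaxed summits in the loci, 29 of 63 in replicate 1 (46.0%) had a match in replicate 2, near the 44.2% of that whole list. Of those in replicate 2, 28 of 39 (71.8%) had a match in replicate 1, against 44.2%.

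**Figure D4:**
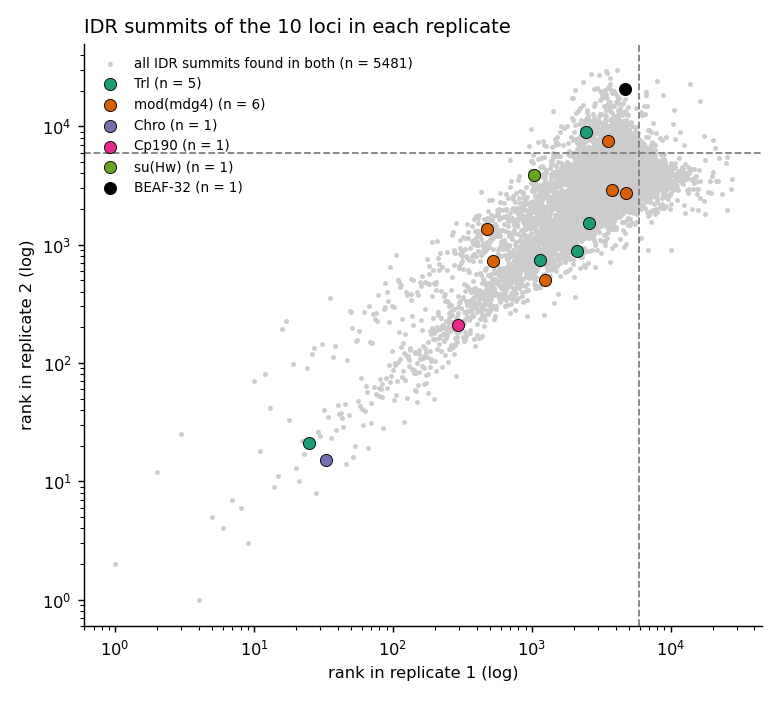
Rank in replicate 1 against rank in replicate 2 (log axes) for the 15 IDR summits in the loci, coloured by gene, over all IDR summits with a match in both replicates (grey). Dashed lines mark rank 5921; the Chro summit and the strongest Trl summit lie at the strong end in both, and the BEAF-32 summit is weak in replicate 2.

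Of the 15 IDR summits 9 were within 500 bp of a TSS of any gene (60.0%, Wilson 95% interval 35.7 to 80.2, for counting error only), 5 were in introns and 1 was intergenic. The interval treats the summits as independent, though 6 lay at the mod(mdg4) locus and 5 at Trl. Over all IDR summits 34.6% were at promoters. That share includes summits far from genes, whereas the loci were drawn around genes, so the interval is no test against it. The 9 include 2 at mod(mdg4) precursors, 1 at tin and 1 at aus, so 5 were at an own TSS of a member. The median signal of the 15 was 384, against 221 in the whole IDR list, and 10 of them were above that median.

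The DNA under the 15 summits was like that under IDR summits as a whole in A+T content. Windows of 50 bp to either side held 64.2% A+T ± 9.15 (SD, 15 summits) against 64.7% ± 9.26 over all 5921. They ran from 49.5% at the aus promoter to 80.2% at the mod(mdg4) precursor summit at 21365389. The strongest summits had 64.4% at Chro and 67.3% at the Trl intron. With 100 bp to either side the mean of the 15 was 63.5% against 63.0% over all IDR summits. In these wider windows the Chro summit had 62.2%, and the Trl intron summit had 75.1%, higher than at 96.6% of all IDR summits.

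**Figure D5:**
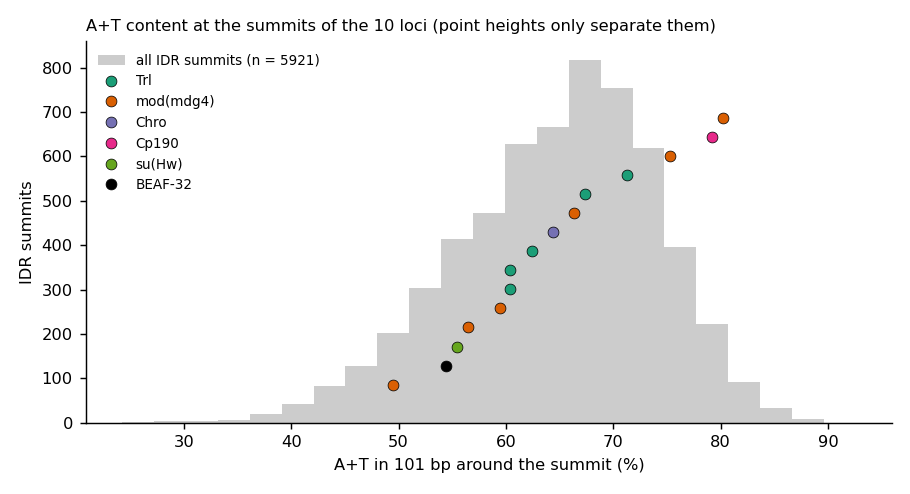
A+T content in the 50 bp to either side of each of the 15 IDR summits (points, coloured by gene, with heights that only separate them) over the histogram of all 5921 IDR summits. The points spread from 49.5% to 80.2%, and none lies in the part of the histogram below 49.5%.

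Motifs of the architectural proteins themselves were searched on both strands of these windows. GAGAG, bound by GAGA factor, was in 4 of the 15, against 11.7% of all IDR windows and 33.1% of 300 bp promoters (250 bp before to 50 bp after each of 19253 TSSs of protein-coding genes). The 4 were the upstream Trl promoter, the su(Hw) window summit in red, and 2 summits by aus. In windows of 100 bp to either side GAGAG was in 5 of 15, against 24.5% of all IDR windows of that width. The 300 bp promoters are longer than either width of window, so their shares are not matched for length. CGATA, bound by BEAF-32, was in 1 of 15, that of Chro, against 12.0% of IDR windows and 45.7% of promoters. With 100 bp on either side of the summit, CGATA was in 4 of 15, against 23.0% of all IDR windows of that width. These include the BEAF-32 summit, where it began 54 bases after the summit. The longer element TATCGATA, which contains CGATA, was in 0 of 15 (0.760% of IDR windows and 7.98% of promoters). The CTCF core AGNNGGCGC (1.08% and 2.89%), the Su(Hw) core TGCATACTT (0.338% and 0.441%), Motif 1 of M1BP GGTCACACT (0.304% and 5.23%) and ACAGTG (7.03% and 14.2%) were also in 0 of 15. An unbroken A/T run of 8 bases or more was in 10 of 15, against 70.9% of all IDR windows and 88.1% of promoters. An absence says only that these letters are not in the window.

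Among 24 other genes of chromosome architecture, 4 had an IDR promoter summit, against 14.9% of protein-coding genes. In the 5921 strongest peaks of each replicate alone the count was higher, 7 of 24 in replicate 1 against 15.4% and 6 of 24 in replicate 2 against 14.9%. The genes added differed between the replicates. Replicate 1 added SMC1 (rank 4351), Cap-H2 (rank 5671) and fs(1)h (rank 5921), and replicate 2 added Clamp (rank 5798) and barr (rank 5500). Of these, only fs(1)h also had a promoter summit in the other replicate's relaxed list or in the pooled list. Within 200 bp of a TSS the count in the IDR list was 2 of 24 against 9.56%. The 4 in the IDR list within 500 bp were SA1, a cohesin subunit gene (rank 1380, 146 bp upstream of a TSS), M1BP, for the protein that binds Motif 1 (rank 1946, 285 bp upstream), SMC2, a condensin subunit gene (rank 2247, 201 bp upstream), and pzg, whose product Z4 works with Chromator (rank 2669, 159 bp upstream). All 4 were weaker than the strongest promoter summits of Chro, Cp190 and Trl. They were stronger than that of BEAF-32 (rank 4839) and than the second Trl promoter summit (rank 3976). The other 20, among them genes of the Elba boundary factors, dwg (Zw5), ZIPIC and Clamp, had none in that list.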

How the data were processed

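The deposited files are peak lists from chromatin immunoprecipitation and sequencing. The signal of each peak is the authors' value, as deposited, on a scale not given in the sources used here, as are the aligner, the peak caller and the IDR threshold. Per the deposited file names, the relaxed lists were made as input for IDR, and the IDR list came from both replicates. The dm3 lists were not used. Every dm6 peak lay within the lengths of the reference assembly of that release. Genes and TSSs were from Ensembl release 115 (BDGP 6.54), without transposable elements, and sequence from the RefSeq assembly of the same release.

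Summits within 500 bp of any TSS were classed as promoter, and the others by the annotation at the summit, with exons before introns where transcripts overlap. The classing of positions and the motif search were tested on simulated positions and sequences. Locus counts, own-TSS calls and replicate matches were not tested in this way. Python 3.11.15, NumPy 2.4.6, pandas 2.3.3, SciPy 1.17.1 and matplotlib 3.10.9 were used. The members and lists were chosen with earlier results of these data known. All 10 members were named, with genes at their summits, bound genes of the other list, and the 3 genes nearest to the strongest member by rank. Sequences on 2R are not shown, and annotated UTRs are not shown beyond 30 bases.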

Additional observations from a re-analysis of the deposited data

How the results depend on the processing

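Members with an IDR promoter summit stayed at 4 with promoters of 200 bp or 1000 bp, were 3 among IDR peaks above the list's median rank, and were 4 to 5 from either replicate alone. IDR summits in the loci fell from 15 to 9 with the gene bodies alone, since mod(mdg4), su(Hw) and Cp190 have summits outside them. They numbered 13 to 19 with flanks of 2 kb and 10 kb and 16 to 17 from either replicate alone, where 7 loci held one. CGATA rose from 1 to 4 windows with 100 bp on either side, as it did from 12.0% to 23.0% over all IDR windows. GAGAG rose from 4 to 5 windows, and from 11.7% to 24.5% over all IDR windows. Other architectural genes with a promoter summit fell from 4 to 2 of 24 with promoters of 200 bp (9.56% of protein-coding genes) and were 6 to 7 from either replicate alone (14.9% and 15.4%), and the cause was not tested. The promoter share of the 15 summits was 46.7% at 200 bp and 73.3% at 1000 bp. The share over all IDR summits at either distance is not given, so these values cannot be compared with a background. A match within 50 bp left 12 of 15 summits found in both replicates, and the share over all IDR summits at that distance is not given. No paired analysis was possible because both replicates form 1 group. Each relaxed list holds 30000 peaks, so a missing relaxed peak is one outside that number. Read depth is unknown, so an absent peak cannot be told apart from a weaker one or from low depth.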
